A study of Mus musculus with 24 samples.

Results

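The plasma proteins of blood coagulation and complement are made mainly by hepatocytes, and their messages were followed here in mouse liver as a group of 37 listed genes: 20 of coagulation, its inhibitors and fibrinolysis, and 17 of complement. The list was drawn up with earlier results of these data known, which bears on every count set beside that of all genes. Its genes were matched to the array's annotation by symbol, and 35 of the 37 had a probe. C3 and Cpb2 had none in the annotation and were not analysed here. All 35 passed the filter on dim probes, through 62 of their 64 probes, among 11115 genes tested of 19057 annotated on 45281 probes.

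Liver RNA came from male C57BL/6J mice, an inbred strain, aged 16 weeks after 10 weeks on their diet, and was hybridised as biotin-labelled cRNA to Illumina bead arrays. The 24 samples formed 4 groups of 6. The control group had a normal diet and plain water, the high-sugar group a normal diet and a drink with 23% sugar by weight per volume, the high-fat group a high-fat diet and plain water, and the high-fat high-sugar group both the high-fat diet and the sugar drink. All groups share strain, sex and age, and the labels do not say which sugar or fat was given. Replicates are numbered from 1 to 6 without a statement that each was a separate animal, so the p-values describe variation among these samples, which may be technical. Values are background-subtracted intensities in arbitrary units, and a probe's noise limit on an array lay between 6.50 and 6.52. Intensities of different probes are not compared with each other. Precision is limited by the number of arrays.

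Coagulation is a chain of serine proteases. Contact factors and tissue factor start it, cofactors such as factor V speed it up, thrombin cuts fibrinogen to fibrin, serpins and the protein C pathway hold it back, and plasmin later removes the clot. Complement is a related protease chain that marks microbes and dying cells. Its lectin, classical and alternative branches meet at C3, and its terminal components assemble into a pore in the target's membrane. Many of these genes are textbook targets of hepatocyte transcription factors, and several respond to acute inflammation.

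Several members lie side by side in the genome. In the RefSeq gene order, 7 pairs had no protein-coding gene between them: Cfb and C2 on chromosome 17, Fgg and Fga, and Fga and Fgb, on chromosome 3, C8b and C8a on chromosome 4, C1ra and C1s1 on chromosome 6, and F7 and F10, and F11 and Klkb1, on chromosome 8. The start regions of 2 of these pairs are shown, because F11 and Klkb1 fell together with the high-fat diet while the sugar drink moved C8a and C8b in opposite directions. Each is the 300-base RefSeq window of build GRCm38.p6, from 250 bases before to 50 bases after the gene's start, written 5′ to 3′ along the gene's strand. C8a lies at chr4:104876349-104876648 on the minus strand, C8b at chr4:104766067-104766366 on the plus strand, F11 at chr8:45261982-45262281 and Klkb1 at chr8:45294786-45295085, both on the minus strand. Capitals mark matches to the motif letters given in the next paragraph.
C8a: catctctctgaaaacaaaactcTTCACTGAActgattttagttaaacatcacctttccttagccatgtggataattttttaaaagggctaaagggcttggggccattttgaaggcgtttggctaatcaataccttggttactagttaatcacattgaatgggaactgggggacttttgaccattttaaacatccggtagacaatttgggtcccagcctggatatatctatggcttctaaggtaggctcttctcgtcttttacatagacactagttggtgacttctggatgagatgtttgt
C8b: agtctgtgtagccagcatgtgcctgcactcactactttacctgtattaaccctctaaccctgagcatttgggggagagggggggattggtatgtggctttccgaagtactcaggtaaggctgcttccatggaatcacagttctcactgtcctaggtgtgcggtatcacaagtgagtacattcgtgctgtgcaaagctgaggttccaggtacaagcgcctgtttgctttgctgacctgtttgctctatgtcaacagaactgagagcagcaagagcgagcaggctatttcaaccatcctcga
F11: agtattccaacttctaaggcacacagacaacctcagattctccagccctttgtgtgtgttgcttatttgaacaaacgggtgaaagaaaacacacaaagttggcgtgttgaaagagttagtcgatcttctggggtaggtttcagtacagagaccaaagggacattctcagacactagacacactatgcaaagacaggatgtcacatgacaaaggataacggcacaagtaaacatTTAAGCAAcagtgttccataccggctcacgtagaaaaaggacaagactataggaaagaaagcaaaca
Klkb1: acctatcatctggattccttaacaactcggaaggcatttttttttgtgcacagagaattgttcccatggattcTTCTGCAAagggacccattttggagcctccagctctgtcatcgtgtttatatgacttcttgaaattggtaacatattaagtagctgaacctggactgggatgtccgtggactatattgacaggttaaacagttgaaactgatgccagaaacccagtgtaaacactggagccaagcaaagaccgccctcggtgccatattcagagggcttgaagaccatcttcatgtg

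The windows were searched on both strands for 6 short motifs of liver factors. A C/EBP-type match (TTGCNNAA) stood in the F11 and in the Klkb1 window, and in those of 9 of 27 members, against 10.8% of all 32851 windows. Counted by window, the C/EBP-type match stood in 9 of the 29 windows of these members. Proc, on a chromosome left out of the member counts but not of the 32851, is not among these 27. C4b, Plg, Kng1, Cfi, Masp1, Cfb and C2 had no window. A STAT-type match (TTCNNNGAA) stood in the C8a window, in 7 of 27 members (7 of their 29 windows) and in 8.298% of all windows. The C8b window held none of the 6. The HNF1 motif was in the window of Hc alone among these 27 members and in 0.0609% of all. The PAR-bZIP motif (TTANGTAA) was in that of F13b alone among them and in 2.323% of all. The HNF4 motif (CAAAGTCCA, 0.4749% of all) and the E-box (CACGTG, 7.151% of all) were in 0 of the 27. A match is a run of letters and not a shown binding site, and matches to the different motifs can overlap.

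In 4 of the 5 comparisons between groups the members held both rises and falls, and with the high-fat diet on the sugar drink they held falls alone. On the normal diet, the sugar drink raised 7 of the 35 and lowered 5, where 28.9% of all genes changed, 14.8% higher and 14% lower. On the high-fat diet the drink raised 9 and lowered 6, where 30.6% of all genes changed, 16.5% higher and 14% lower. The high-fat diet on water raised 2 and lowered 9, where 17.9% of all genes changed, 9.06% higher and 8.8% lower. On the drink, the high-fat diet raised 0 and lowered 5, where 7.85% of all genes changed, 4.34% higher and 3.52% lower. Against control, both treatments together raised 7 and lowered 8, where 35.5% of all genes changed, 19% higher and 16.5% lower. Fgb is among the members raised by the high-fat diet on water and by both treatments. Its dim probe passed the filter only through treated groups, as it was under the noise limit in every control sample. A gene is called changed when limma's adjusted p over all 11115 genes is under 0.05. Each ± gives the fit's standard error of a log2 difference between groups of 6.

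**Figure D1:**
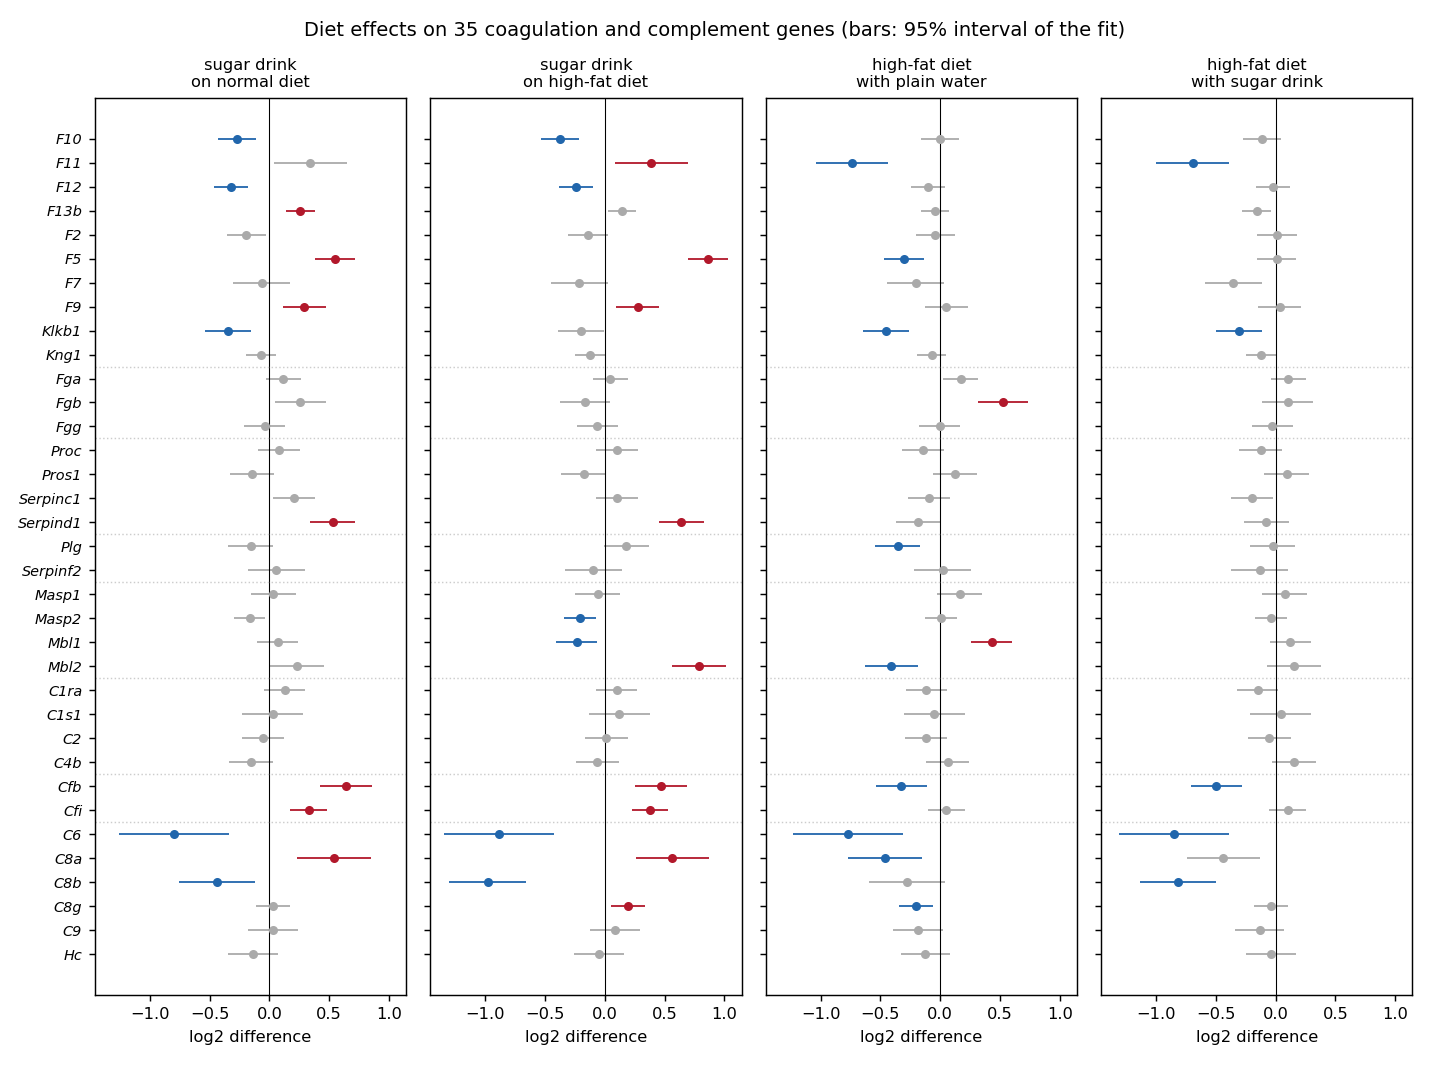
Differences in log2(intensity + 32) of the 35 measured members with the sugar drink on each diet and with the high-fat diet on each drink. There is 1 panel per comparison, with genes ordered by role and role groups separated by dotted lines. The comparison of both treatments with control is not drawn. Points are fitted differences and bars 95% intervals; red marks members that rose, blue those that fell and grey those that did not pass. Red and blue stand in every panel except that of the high-fat diet with the sugar drink, where 5 members are blue and 0 are red.

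The median difference of the 35 members was 0.03 with the drink on the normal diet, 0.01 with it on the high-fat diet, −0.10 with the high-fat diet on water, −0.04 with it on the drink and −0.04 with both treatments, beside −0.01, −0.01, 0.00, 0.01 and −0.00 for all genes. With the high-fat diet on water, 25 of the 35 differences were below 0 and 10 above, against 5465 and 5650 of 11115 for all genes. Groups that did not overlap at all were found for 9, 5, 3, 1 and 10 of the 35 in that order, against 12%, 13.5%, 6.05%, 3.9% and 14.2% of all genes. In percent, 34.3, 42.9, 31.4, 14.3 and 42.9 of the members were called in the same order. These shares stand beside those of all genes as a description, with no test between them. Fgb, under the noise limit in every control sample, is counted as not overlapping in each of the comparisons with control.

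Of the 10 clotting factors and contact proteins, 3 rose and 3 fell when the drink was added to the normal diet, and 3 rose and 2 fell when it was added to the high-fat diet. F5, the cofactor that speeds thrombin formation, had intensities from 540 to 689 with a median of 602 in control, and from 822 to 980 with a median of 909 with the drink. On the high-fat diet the F5 range was 411 to 575 (median 479) with water and 750 to 998 (median 939) with the drink. The ranges of the sugar groups lay wholly above those of the water groups on both diets. F5 was 1.46-fold higher on the normal diet (0.55 ± 0.08, adjusted p = 1.55e-05) and 1.82-fold higher on the high-fat diet (0.86 ± 0.08, adjusted p = 2.06e-08). Its other probe did not follow: it averaged 786 in control and 656 with the drink, and 627 and 713 on the high-fat diet, and passed in neither. With F5's probes averaged, the change on the normal diet was 0.16 (adjusted p = 0.139) and that on the high-fat diet 0.52 (adjusted p = 1.60e-05).

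F9, the factor missing in haemophilia B, rose with the drink by similar amounts on the normal (1.22-fold, 0.29 ± 0.09) and the high-fat diet (1.21-fold, 0.27 ± 0.09). The F9 call on the high-fat diet ended without high-fat replicate 1 (0.24, adjusted p = 0.0517) or without high-fat high-sugar replicate 6 (0.24, adjusted p = 0.0547). F10, the protease that cuts prothrombin, fell 1.20-fold (−0.27 ± 0.08) and 1.30-fold (−0.38 ± 0.08). F12, the contact factor that starts the intrinsic chain, spanned 5385 to 6735 (median 6319) in control and 4481 to 5479 (median 4911) with the drink. On the high-fat diet F12 spanned 5065 to 6105 (median 5887) with water and 4532 to 5319 (median 4811) with the drink. The F12 ranges overlapped only at their edges on each diet, and the falls were 1.25-fold (−0.32 ± 0.07, adjusted p = 0.00107) and 1.18-fold (−0.24 ± 0.07, adjusted p = 0.0100). Its further probes also had lower means with the drink on each diet, but differed with the high-fat diet on water. There 1 went from a mean of 2966 in control to 2461, without overlap, and the other from 1946 to 2094.

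F13b, the carrier subunit of the fibrin-crosslinking factor XIII, had probes whose changes differed widely in size. On the probe used for the count it rose 1.20-fold with the drink on the normal diet (0.26 ± 0.06) and was 0.14 ± 0.06 higher on the high-fat diet without passing. Its other probe rose from a mean of 471 to 1134 on the normal diet (1.21 ± 0.13, adjusted p = 1.71e-07) and from 398 to 1078 on the high-fat diet (1.31 ± 0.13, adjusted p = 3.23e-08). F2, prothrombin, did not pass in any comparison. F7, the partner of tissue factor, passed only with both treatments, 1.34-fold lower (−0.42 ± 0.12, adjusted p = 0.00607).

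The contact proteins F11 and Klkb1, neighbours on chromosome 8, were both lower on the high-fat diet with either drink. F11, the target of activated factor XII, spanned 648 to 1529 (median 980) in control and 426 to 712 (median 595) in the high-fat group. With the drink F11 spanned 1070 to 1535 (median 1209) on the normal diet and 614 to 1000 (median 788) on the high-fat diet. Control and high-fat overlapped at the edge, while the drink groups did not overlap. F11 fell 1.67-fold with water (−0.74 ± 0.15, adjusted p = 9.61e-04) and 1.62-fold with the drink (−0.69 ± 0.15, adjusted p = 0.00379). Its other probe that passed the filter fell alike (−0.72 ± 0.15 and −0.64 ± 0.15) and rose with the drink on both diets (0.58 ± 0.15 and 0.65 ± 0.15). On the probe used for the count, the drink's rise was 0.34 ± 0.15 on the normal diet (adjusted p = 0.0850) and 0.39 ± 0.15 on the high-fat diet (adjusted p = 0.0480, ended by leaving out any 1 of 8 samples, up to 0.129).

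Klkb1, plasma prekallikrein, which releases bradykinin from kininogen once activated, spanned 1959 to 3064 (median 2715) in control, 1662 to 2201 (median 1925) in the high-fat group, 1630 to 2277 (median 2108) in the high-sugar group and 1477 to 1785 (median 1662) with both. The group with both treatments was the lowest and did not overlap control. Klkb1 fell 1.37-fold with the high-fat diet on water (−0.45 ± 0.09, adjusted p = 0.00116), 1.27-fold with the drink on the normal diet (−0.35 ± 0.09, adjusted p = 0.00588) and 1.57-fold with both (−0.65 ± 0.09, adjusted p = 5.70e-06). Its fall with the high-fat diet on the drink, −0.31 ± 0.09, had an adjusted p of 0.0390 and lost its call when any 1 of 8 samples was left out, up to 0.108. The other Klkb1 probe fell with the diet (−0.53 ± 0.10 and −0.41 ± 0.10) but did not pass with the drink on either diet. So F11 and Klkb1 shared their direction with fat, whereas with the drink on the normal diet F11 was higher without passing and Klkb1 fell.

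Kng1, kininogen, which carries both in plasma, passed with both treatments alone on its brightest probe (−0.20 ± 0.06), at intensities of 20592 to 28732 that lie near the top of the scale. Another Kng1 probe fell with both treatments (−0.34 ± 0.07, adjusted p = 3.44e-04), with the drink on the high-fat diet (−0.24 ± 0.07, adjusted p = 0.0101) and with fat on the drink (−0.24 ± 0.07, adjusted p = 0.0270). A dim Kng1 probe rose with the drink on the normal diet (0.26 ± 0.09, adjusted p = 0.0216) and fell with both treatments (adjusted p = 0.0389) and with fat on the drink (adjusted p = 4.54e-04), where its mean went from 17.9 to 3.46, under the noise limit.

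**Figure D2:**
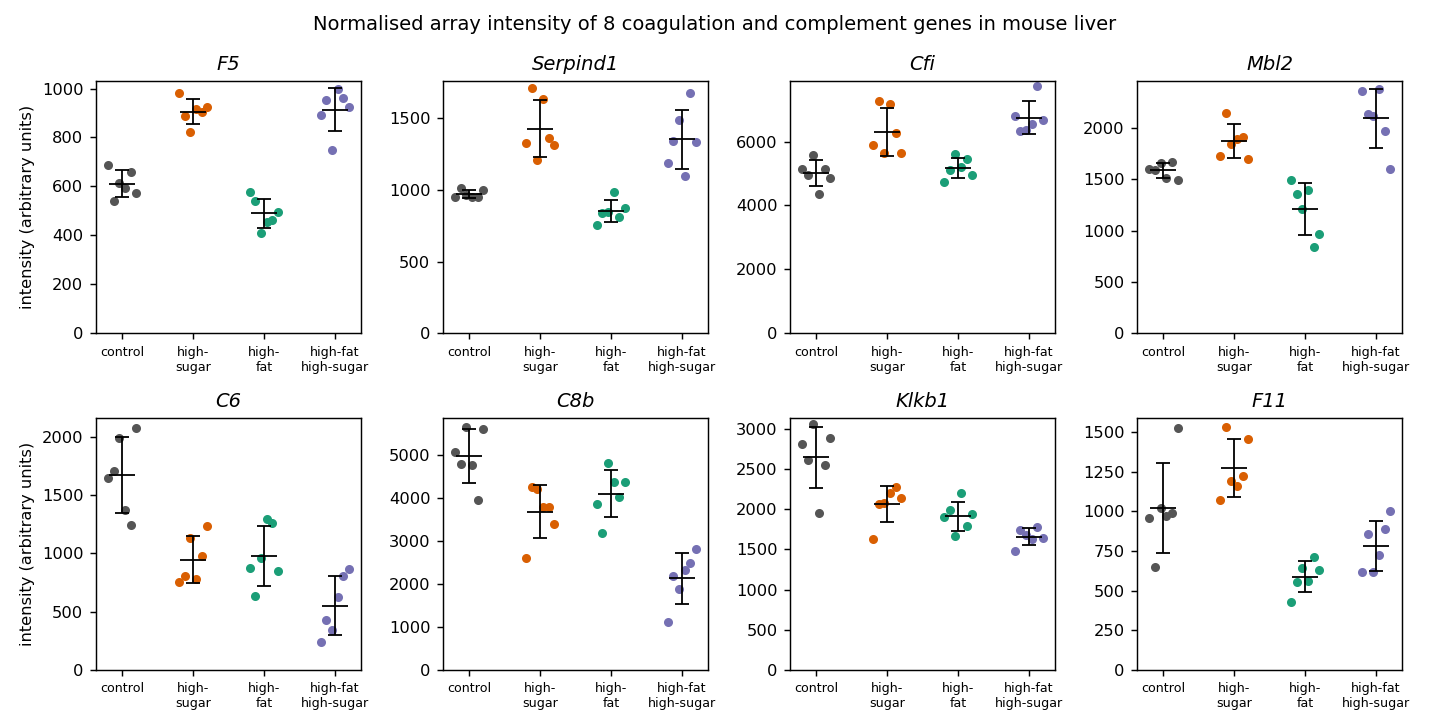
Intensity in each of the 24 samples for 8 members, F5, Serpind1, Cfi, Mbl2, C6, C8b, Klkb1 and F11, 1 panel per gene with its own linear axis in arbitrary units. Points are samples and the bars the mean and SD of each group of 6; F5 and Serpind1 stand higher in both sugar groups, while C6 and C8b are lowest in the group with both treatments.

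The fibrinogen chains are the clot's substance. Fga passed only with both treatments (1.16-fold, 0.22 ± 0.07, adjusted p = 0.0184), a call that ended without control replicate 4 (0.18, adjusted p = 0.0540), and Fgg passed in no comparison. The array's Fgb probe was at the noise level. It read −0.28 to 3.89 (median 2.21) in control, 7.49 to 36.7 (median 11.97) in the high-fat group, 6.00 to 10.8 (median 8.43) in the high-sugar group and 7.29 to 17.0 (median 11.9) with both. All control samples were under the noise limit and all samples of the high-fat group above it, and the means were 1.87 and 17.9 (adjusted p = 7.35e-04). No fold is given against such a group, and the calls for Fgb ended when intensities were floored at 16.

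Of the 4 anticoagulants, Serpind1 rose with the sugar drink and the other 3 did not pass on the probe used for the count. Serpind1, heparin cofactor II, a serpin that inhibits thrombin, spanned 948 to 1013 (median 957) in control and 1209 to 1714 (median 1347) with the drink. On the high-fat diet Serpind1 spanned 754 to 987 (median 844) with water and 1096 to 1675 (median 1339) with the drink. The sugar groups lay wholly above the water groups, and the rises were 1.44-fold (0.53 ± 0.09, adjusted p = 9.12e-05) and 1.56-fold (0.64 ± 0.09, adjusted p = 6.96e-06). Serpinc1 (antithrombin), Proc (protein C) and Pros1 (protein S, its cofactor) stayed between −0.20 and 0.21 in all 5 comparisons.

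Another Proc probe did pass, rising from a mean of 3870 to 4861 with the drink on the normal diet (0.33 ± 0.08, adjusted p = 0.00257) and from 3053 to 4269 on the high-fat diet (0.48 ± 0.08, adjusted p = 4.00e-05), and falling with the high-fat diet on water (−0.34 ± 0.08). A dim Serpinc1 probe averaged 28.8 in control, 46.0 with the drink, 19.6 on the high-fat diet and 13.4 with both. It rose with the drink on the normal diet (0.37 ± 0.10) and fell with the high-fat diet on the drink (−0.79 ± 0.10, adjusted p = 6.36e-06). For Proc and Serpinc1, then, the probe decided whether a change was called.

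Plg, the precursor of the clot-dissolving plasmin, fell 1.28-fold with the high-fat diet on water (−0.36 ± 0.09, adjusted p = 0.00723) and passed in no other comparison. Averaged over its probes the Plg difference was −0.15 (adjusted p = 0.132), and its dim probes moved in opposite directions with the drink on the high-fat diet (−0.59 ± 0.10 and 0.65 ± 0.10). Serpinf2, the main plasmin inhibitor, did not pass on the probe used for the count. Both of its further probes fell with the drink on the high-fat diet (−0.37 ± 0.11 and −0.32 ± 0.12).

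The mannose-binding lectins, which recognise microbial sugars and start the lectin branch, moved in opposite directions on the high-fat diet. Mbl1 spanned 3215 to 4356 (median 3736) in control and 4569 to 6076 (median 4823) in the high-fat group. In the high-sugar group Mbl1 spanned 3614 to 4045 (median 3992), and with both treatments 3743 to 4876 (median 4300). The high-fat group lay wholly above control, 1.35-fold higher (0.43 ± 0.08, adjusted p = 6.51e-04). With the drink on the high-fat diet Mbl1 was 1.18-fold lower (−0.23 ± 0.08, adjusted p = 0.0331), a call lost when any 1 of 5 samples was left out, up to 0.10003.

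Mbl2 spanned 1492 to 1668 (median 1596) in control, 843 to 1490 (median 1288) in the high-fat group, 1703 to 2153 (median 1870) in the high-sugar group and 1607 to 2383 (median 2131) with both. The high-fat group lay wholly below control and the high-sugar group wholly above it. Mbl2 fell 1.33-fold with the high-fat diet on water (−0.41 ± 0.11, adjusted p = 0.0104) and rose 1.73-fold with the drink on the high-fat diet (0.79 ± 0.11, adjusted p = 4.78e-06). On the normal diet the difference with the drink was 0.23 ± 0.11 (adjusted p = 0.118). The comparisons of Mbl1 and Mbl2 on water and on the high-fat diet share the 6 high-fat samples.

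Masp1 and Masp2, the proteases that these lectins activate, gave different answers on different probes. On the probe used for the count, Masp2 fell with the drink on the high-fat diet (−0.21 ± 0.06, adjusted p = 0.0141) and Masp1 did not pass. Another Masp2 probe rose with the drink, from a mean of 239 to 401 on the normal diet (0.68 ± 0.11, adjusted p = 4.31e-05) and from 229 to 368 on the high-fat diet (0.60 ± 0.11, adjusted p = 1.65e-04). The other 2 Masp2 probes fell on the high-fat diet (−0.41 ± 0.07 and −0.33 ± 0.12). Another Masp1 probe fell with the high-fat diet, from 575 to 359 with water (−0.64 ± 0.12, adjusted p = 5.16e-04) and from 583 to 410 with the drink (−0.47 ± 0.12, adjusted p = 0.0132).

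In the classical branch, 0 of 4 members passed in any comparison on the probe used for the count: C1ra and C1s1, the proteases of the first component, C2, and C4b, the protein whose fragment anchors the branch to a surface. C1ra was read at −2.52 to 14.7, around the noise limit. Both further C4b probes fell with the drink, from means of 358 to 221 (−0.63 ± 0.11) and 516 to 362 (−0.48 ± 0.12) on the normal diet, and from 401 to 258 (−0.59 ± 0.11) and 594 to 434 (−0.44 ± 0.12) on the high-fat diet. C4b has a near-identical neighbour in the mouse genome, so the source of these probes' signal is uncertain. The other C1s1 probe rose by 0.31 ± 0.11 and 0.35 ± 0.11 with the drink.

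Both measured members at the centre of complement rose with the sugar drink on each diet. Cfb, the protease of the alternative branch, spanned 27.8 to 46.9 (median 32.5) in control and 60.7 to 82.4 (median 73.9) with the drink. On the high-fat diet Cfb spanned 16.0 to 35.2 (median 21.4) with water and 28.1 to 72.4 (median 40.3) with the drink. The normal-diet groups did not overlap, and every value was above the noise limit. Cfb was 1.56-fold higher on the normal diet (0.64 ± 0.10, adjusted p = 4.70e-05) and 1.38-fold on the high-fat diet (0.47 ± 0.10, adjusted p = 0.00112). The high-fat diet lowered it 1.25-fold with water (−0.32 ± 0.10, adjusted p = 0.0304) and 1.41-fold with the drink (−0.50 ± 0.10, adjusted p = 0.00343). The call on water ended when any 1 of 5 samples was left out, up to 0.0817. With intensities floored at 16 in place of the offset, all of these Cfb differences were more than 1.5 times as large, at 1.06 and 0.96 with the drink and −0.71 and −0.80 with fat. Its chromosomal neighbour C2, the corresponding protease of the classical and lectin branches, lay between −0.12 and 0.01 in the 5 comparisons and did not pass.

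Cfi, the protease that inactivates the C3 and C4 fragments, rose 1.25-fold on the normal diet (0.33 ± 0.07, adjusted p = 0.00158) and 1.30-fold on the high-fat diet (0.38 ± 0.07, adjusted p = 3.35e-04). In both comparisons the Cfi groups did not overlap. The high-fat diet left Cfi at 0.05 ± 0.07 with water and 0.10 ± 0.07 with the drink, neither of which passed.

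Among the 6 terminal components, C6 and C8b fell and C8a rose with the sugar drink on both diets. C6, which joins the pore after C5 is cut, spanned 1246 to 2074 (median 1676) in control, 629 to 1295 (median 915) in the high-fat group, 752 to 1235 (median 893) in the high-sugar group and 238 to 864 (median 527) with both. Control was highest and the group with both treatments lowest, with no overlap between them. C6 fell 1.74-fold with the drink on the normal diet (−0.80 ± 0.22, adjusted p = 0.00831), 1.84-fold with the drink on the high-fat diet (−0.88 ± 0.22, adjusted p = 0.00367) and 3.15-fold with both (−1.654 ± 0.22, adjusted p = 3.16e-06). The falls with the high-fat diet were 1.71-fold on water (−0.77 ± 0.22, adjusted p = 0.0168) and 1.81-fold on the drink (−0.85 ± 0.22, adjusted p = 0.0171). These ended without high-fat replicate 2 (−0.66, adjusted p = 0.0516) and without high-fat high-sugar replicate 1 (−0.66, adjusted p = 0.0615). The other C6 probe fell in the same 5 comparisons, by 0.89, 1.08, 0.78, 0.97 and 1.86 on the log2 scale in the order drink on normal diet, drink on high-fat diet, fat on water, fat on drink and both.

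C8b, the beta chain of the eighth component, spanned 3947 to 5637 (median 4923) in control, 3188 to 4803 (median 4197) in the high-fat group, 2600 to 4260 (median 3787) in the high-sugar group and 1107 to 2806 (median 2245) with both. The group with both treatments lay wholly below control and below the high-fat group. C8b fell 1.97-fold with the drink on the high-fat diet (−0.98 ± 0.16, adjusted p = 2.56e-05), 1.76-fold with the high-fat diet on the drink (−0.82 ± 0.16, adjusted p = 0.00148) and 2.39-fold with both (−1.26 ± 0.16, adjusted p = 1.03e-06). Its fall with the drink on the normal diet was 1.36-fold (−0.44 ± 0.16, adjusted p = 0.0342), and leaving out any 1 of 5 samples ended that call, up to 0.101.

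C8a, the alpha chain, is the neighbour of C8b on chromosome 4 and has its start on the opposite strand. C8a rose 1.45-fold with the drink on the normal diet (0.54 ± 0.15, adjusted p = 0.00790) and 1.48-fold on the high-fat diet (0.57 ± 0.15, adjusted p = 0.00511), on a dim probe of 39.9 to 193. The high-fat diet on water lowered it 1.38-fold (−0.46 ± 0.15, adjusted p = 0.0321), a call that ended when any 1 of 6 samples was left out, up to 0.0878. C8g, the third chain, fell with fat on water (−0.20 ± 0.07, adjusted p = 0.0437) and rose with the drink on the high-fat diet (0.19 ± 0.07, adjusted p = 0.0342), calls that any 1 of 7 and any 1 of 6 samples could end, up to 0.119 and 0.0927. Both C8g comparisons share the 6 high-fat samples. Hc, which encodes C5, and C9, which lines the pore, did not pass. Another C9 probe rose with the drink on the high-fat diet (0.58 ± 0.14, adjusted p = 0.00272).

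The drink's effects on the 2 diets were measured in separate samples, which allows them to be set against each other. Of the 12 members changed by the drink on the normal diet and the 15 on the high-fat diet, 10 were shared, 83.3% and 66.7% of each list, and all 10 went the same way. For all genes 1732 were shared, 54% and 51% of each list, and 1704 of those went the same way. Across the 35 members the effects on the 2 diets correlated with r = 0.86 (Pearson) and rho = 0.80 (Spearman), beside 0.68 and 0.61 across all genes. The points share arrays and a normalisation, and genes are not independent replicates. For fat on water against fat on the drink, 4 calls were shared of 11 and 5 (36.4% and 80%), all in the same direction, with r = 0.72 and rho = 0.65. Across all genes 357 calls were shared, 18% and 40.9% of each list, 349 of them in the same direction, with r = 0.53 and rho = 0.37.

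**Figure D3:**
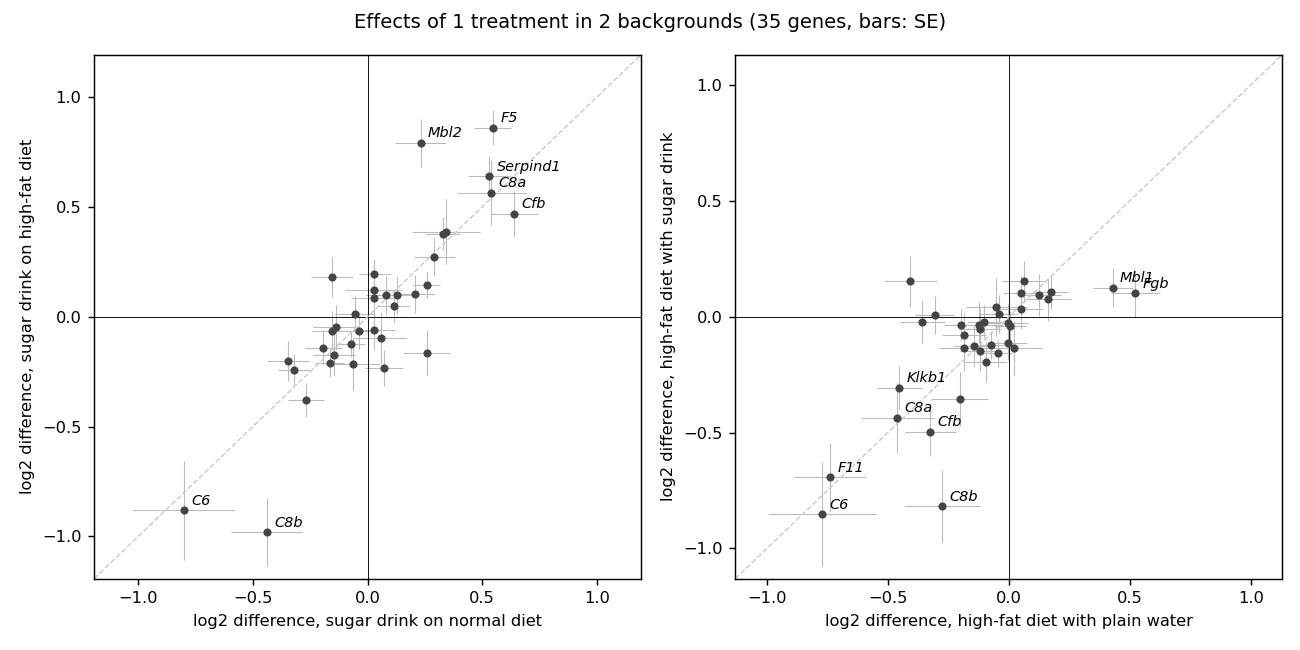
Left, the sugar drink's effect on each of the 35 members on the normal diet (x axis) and on the high-fat diet (y axis). Right, the high-fat diet's effect with water (x) and with the drink (y). Axes are differences in log2(intensity + 32), bars are standard errors and the dashed line marks equal effects; C6, C8b, F5 and Serpind1 lie far from 0 on both axes on the left, and F11 and C6 on the right.

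Whether the drink acted differently on the 2 diets was tested as an interaction, with 2.43% of all genes passing. In limma, 0 of the 35 members passed on the probe used for the count. Mbl2 was the nearest, with a rise larger by 0.56 ± 0.16 on the high-fat diet (95% interval 0.24 to 0.88, adjusted p = 0.0505), and it passed under 6 of the other settings tried and when any 1 of 6 samples was left out (adjusted p down to 0.0243). Over all probes 2.52% passed the interaction, among the members' probes that of Mbl2 and a dim one of Serpinc1. After Mbl2, the members nearest to passing on the probe used for the count were Fgb (−0.42 ± 0.14), F5 (0.31 ± 0.11), Mbl1 (−0.30 ± 0.12), Plg (0.34 ± 0.13) and C8b (−0.54 ± 0.22). Their adjusted p lay between 0.110 and 0.182, and Fgb was under the noise limit in every control sample. A p that misses the threshold does not show equal effects: the 95% interval for C8b ran from −0.99 to −0.09.

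With both treatments against control, the largest of the 15 changes were the falls of C6 and C8b given above, followed by that of Klkb1. F5 (1.47-fold, 0.55 ± 0.08), Cfi (1.35-fold, 0.43 ± 0.07), Serpind1 (1.37-fold, 0.45 ± 0.09), F9 (1.25-fold, 0.32 ± 0.09) and Mbl2 (1.30-fold, 0.38 ± 0.11) were higher, with adjusted p from 8.24e-06 to 0.00757. With F5's probes averaged, its difference with both treatments was 0.22 (adjusted p = 0.0319). F10 (−0.38 ± 0.08), F12 (−0.34 ± 0.07), F7, Kng1 and Masp2 (−0.21 ± 0.06) fell. Cfb, which sugar raised and fat lowered, was 0.14 ± 0.10 from control (adjusted p = 0.299), C8a 0.10 ± 0.15 (adjusted p = 0.629) and F11 −0.35 ± 0.15 (adjusted p = 0.0675).

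For 17 members more than 1 probe passed the filter, 27 further probes in all. Of the further probes of genes called with the drink on the normal diet, 3 of 6 were called the same way, 0 the opposite way and 3 not at all, and 28% of all 20216 probes passed there. On the high-fat diet 5 of 8 were called the same way, 1 the opposite way and 2 not at all, with 29.6% of all probes. With fat on water 5 of 7 were called the same way and 2 not at all, with 15.6% of all probes, and with fat on the drink 3 of 3, with 7.05%. With both treatments 7 of 11 were called the same way, 1 the opposite way and 3 not at all, with 33.4%. The opposite call was in each case that of Masp2.

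**Figure D4:**
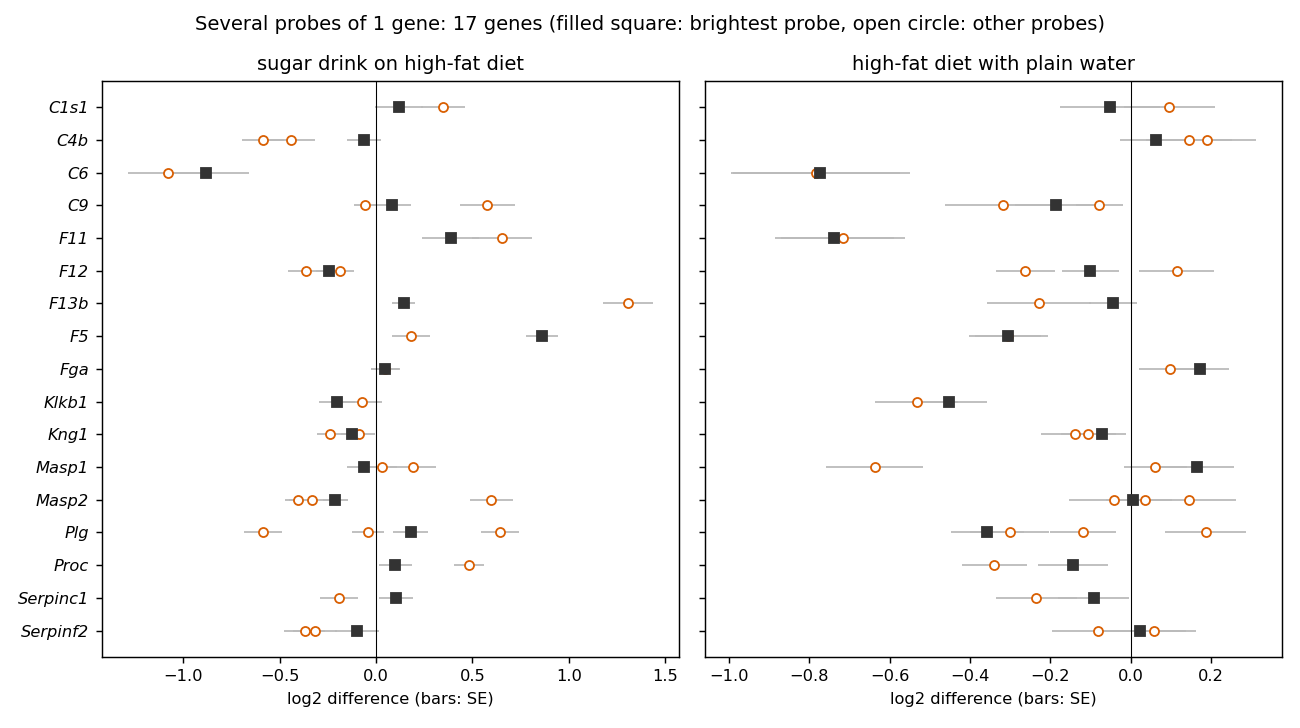
Differences in log2(intensity + 32) for each probe that passed the filter of the 17 members with several probes, with the sugar drink on the high-fat diet (left) and with the high-fat diet on water (right). Filled squares are the brightest probe of a gene, open circles its other probes and bars standard errors; C6, F11 and Klkb1 agree in direction between probes with the high-fat diet, while Masp1, Masp2 and F13b have probes far apart.

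Some pairs of members varied together from sample to sample within groups. Over the 24 samples, after each group's mean was taken off, the 595 pairs of members had a median correlation of 0.09, from −0.60 for F5 and F7 to 0.77 for C6 and C8b. The next highest values were 0.73 for C8a and Cfb, 0.73 for C4b and Plg, 0.72 for C6 and C8a, and 0.72 for C8a and Hc. Then came 0.71 for Hc and Plg, 0.70 for F11 and Plg, and 0.70 for Plg and Serpinf2. The fibrinogen chains Fga and Fgg had 0.69, F2 and Serpind1 0.67, and F12 and Klkb1, further down, 0.63. All pairs share the same arrays, and the values are a description. High-fat high-sugar replicate 1 was the lowest of its group for C6 (238, group median 527) and C8b (1107, group median 2245), and for C8a and Cfb. How far the highest correlations rest on this 1 sample was not tested.

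Among other genes of coagulation and fibrinolysis, 12 of 18 were tested. With the sugar drink, 2 rose and 1 fell on the normal diet and 4 rose and 1 fell on the high-fat diet. Hrg, the plasma histidine-rich glycoprotein, rose 1.69-fold (0.76 ± 0.11, adjusted p = 1.20e-05) and 1.55-fold (0.63 ± 0.11, adjusted p = 8.11e-05), and Vwf, the endothelial carrier of factor VIII, fell by 0.35 and 0.31. With the high-fat diet 1 rose and 0 fell on water, and 3 rose and 0 fell on the drink. Anxa2, which helps assemble plasmin at cell surfaces, rose with fat 1.90-fold (0.93 ± 0.20) and 2.54-fold (1.34 ± 0.20), and 3.20-fold with both treatments (1.68 ± 0.20, adjusted p = 5.25e-07).

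All 8 genes of the vitamin K cycle and of factor export were tested. Lman1, the cargo receptor that carries factors V and VIII out of the endoplasmic reticulum, rose 1.79-fold with the drink on the normal diet (0.84 ± 0.12, adjusted p = 1.15e-05) and 1.98-fold on the high-fat diet (0.99 ± 0.12, adjusted p = 9.49e-07). With the drink, 2 of the 8 rose and 1 fell on the normal diet, 1 rose on the high-fat diet, and 0 passed with fat on either drink. The others that passed on the normal diet were Ggcx, the vitamin K-dependent carboxylase (0.27 ± 0.09), and Vkorc1l1, an enzyme of the cycle (−0.27 ± 0.09).

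Of complement regulators, receptors and components outside the members, 15 of 25 were tested. The drink raised 5 and lowered 2 on the normal diet, and raised 3 and lowered 3 on the high-fat diet. C4bp, the cofactor of Cfi for C4, rose 1.31-fold (0.39 ± 0.09) and 1.48-fold (0.56 ± 0.09), and the lectin Colec11 by 0.58 ± 0.11 and 0.66 ± 0.11. With the high-fat diet on water 7 rose and 0 fell, among them the chains of C1q, which macrophages make: C1qc by 0.69 ± 0.13, C1qb by 0.56 ± 0.12 and C1qa by 0.48 ± 0.11. C1qa fell with the drink on both diets (−0.37 ± 0.11 and −0.47 ± 0.11).

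All 18 acute phase genes were tested. Saa4, a serum amyloid A, rose with the drink on the normal (2.28-fold, 1.19 ± 0.18) and the high-fat diet (2.90-fold, 1.54 ± 0.18) and fell with fat on water (−0.67 ± 0.18). In all, 3 rose and 1 fell with the drink on each diet, 3 rose and 1 fell with fat on water, 3 rose and 0 fell with fat on the drink, and 10 rose and 0 fell with both treatments. Fgl1, a liver-secreted relative of fibrinogen, rose 1.95-fold with fat on water (0.96 ± 0.13, adjusted p = 1.06e-05), and Lcn2, lipocalin 2, 5.27-fold (2.40 ± 0.62, adjusted p = 0.00815). Lcn2 rose 3.96-fold with fat on the drink (1.99 ± 0.62, adjusted p = 0.0482).

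Of 13 transcription factors known to act on such genes in liver, 11 were tested. Stat3, the mediator of interleukin-6 signals, fell with the drink on the normal (−0.68 ± 0.13, adjusted p = 2.03e-04) and the high-fat diet (−0.72 ± 0.13, adjusted p = 7.97e-05). Tef, a clock-controlled PAR-bZIP factor, fell 1.96-fold with fat on water (−0.97 ± 0.17, adjusted p = 2.00e-04) and 1.60-fold with the drink on the normal diet (−0.68 ± 0.17, adjusted p = 0.00321). Its relative Dbp fell with fat on water (−0.66 ± 0.15) and rose with the drink on the high-fat diet (0.53 ± 0.15), comparisons that share the high-fat samples. In count, 1 rose and 2 fell with the drink on the normal diet, 2 rose and 1 fell on the high-fat diet, 1 rose and 2 fell with fat on water, 0 passed with fat on the drink, and 1 rose and 3 fell with both, Hnf4a among these (−0.51 ± 0.12, adjusted p = 0.00110).

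The samples carried the markers of liver. Of 10 hepatocyte markers 9 were tested, with summed intensities of 116406 to 126692 in control, 117720 to 123077 in the high-fat, 114606 to 123086 in the high-sugar and 109585 to 122039 in the high-fat high-sugar group. Tat was under the noise limit, and Alb was read at a mean of only 114 by its brightest probe. In whole liver, fewer cells of a type and less RNA per cell cannot be told apart.

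Macrophage markers moved with the high-fat diet. Of 10 Kupffer cell and macrophage markers 8 were tested, and 5 rose and 0 fell with fat on water, 1 rose with fat on the drink and 4 rose with both treatments. Their summed intensity was 2547 to 2952 in control, 2966 to 4800 in the high-fat, 2401 to 4347 in the high-sugar and 3464 to 6193 in the high-fat high-sugar group, while Cd5l was under the noise limit. Neutrophil marker sums were 54.4 to 92.8, 86.2 to 416, 45.8 to 182 and 79.5 to 317 in the same order, with Mpo and Cxcr2 under the limit. Sums of the 8 tested stellate cell and fibroblast markers were 3530 to 3769, 3311 to 4811, 3830 to 4743 and 3781 to 5821, with Col1a2 and Col3a1 under the limit. The part of these cells in the members' changes was not tested.

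Among the other marker lists, the pancreas sum stood higher in both sugar groups, but it rested on 1 gene. Its tested markers had mean intensities of 3705 (Amy2a5) and 5.94 (Ctrb1, under the noise limit). Sums of the 10 sinusoidal and vascular endothelial markers were 4879 to 6408 in control, 6209 to 7564 in the high-fat, 5944 to 7439 in the high-sugar and 5736 to 7047 in the high-fat high-sugar group. The 4 tested T, B and NK cell markers summed to 29.8 to 88.9, the 4 tested platelet markers to 17.0 to 68.4, with Pf4 and Gp1bb under the limit, and the 2 tested cholangiocyte markers to 227 to 509, with Krt19, Epcam and Cftr under it. The 2 tested pancreas markers summed to 2600 to 3241 in control, 2174 to 2881 in the high-fat, 4507 to 5379 in the high-sugar and 3675 to 5363 in the high-fat high-sugar group. Of these, Amy2a5 rose with the drink (0.74 ± 0.09 and 0.83 ± 0.09), while Cpa1 and Prss2 were under the limit. Amy2a5 belongs to a family of near-identical amylase genes that the liver also expresses.

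Whole arrays were alike. Pearson's r was 0.986 to 0.995 for samples within a group and 0.973 to 0.992 for samples of different groups. Each array had 17976 to 18010 probes over the noise limit, which quantile normalisation forces. The highest intensity was 34060.5 on every array, and the brightest members, Fga (16908 to 25682) and Kng1, lie nearest to it.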

How the data were processed

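Liver RNA of 24 mouse samples was measured on Illumina bead arrays. The deposited values are intensities per probe on a linear scale, made with GenomeStudio 2011.1 per the submitters' processing notes. From the values, they were background-subtracted (37.7% negative, lowest −13.0) and quantile-normalised (sorted columns differed by at most 0.231). A deposited table with 48 columns (24 of signals) whose names match no sample was not used. Probe symbols came from the platform annotation and were brought to current names through gene identifiers (34807 of the 34885 probes that had 1 symbol); 10378 had none and 18 several.

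An offset of 32 was added before log2, so each fold is of intensity plus offset and understates changes of dim probes. Each array's noise SD was taken from its negative values (root mean square); a probe was kept above 1.645 noise SD on at least 6 of 24 arrays (20216 probes), and each gene took the kept probe with the highest mean log2 value (11115 genes). limma 3.58.1 in R 4.3.3 fitted 1 mean per group with intensity-trended empirical Bayes moderation (20 residual, 6.96 prior degrees of freedom). Tests were two-sided, with Benjamini-Hochberg adjustment over all genes within each of 6 contrasts and a threshold of 0.05; the same fit over all probes gave the probe values. The script was tested on simulated data. No fold is given where a group's mean lay under the noise limit. Alternatives were offsets of 16 and 64, a floor of 16, other filters, cyclic loess, array weights, no intensity trend, the mean over probes, any probe, a replicate block and leaving out each sample. Members and gene lists were chosen with earlier results of these data known. By rule, values in every group are given for the 4 members with the smallest adjusted p in each comparison, and at most 4 passing genes per further list and comparison are named. The array's genome build is not given in the sources used here, and promoter windows follow RefSeq's GRCm38.p6.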

Additional observations from a re-analysis of the deposited data

Results flagged for a closer look

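In 7 of the 140 groups of 6 examined (35 members in 4 groups), 1 sample stood far from the other 5 by Dixon's test, and chance alone gives about 1 in 20. High samples were C4b in high-sugar replicate 1 (intensity 6341.73, next 5646.1), Cfb in high-fat replicate 3 (35.17, next 22.04), Cfb in high-fat high-sugar replicate 5 (72.45, next 43.52), Cfi in high-fat high-sugar replicate 5 (7726, next 6806) and Pros1 in high-fat replicate 5 (747, next 584). Low samples were Hc in high-sugar replicate 2 (1290.5, next 1514) and Klkb1 in high-sugar replicate 1 (1629.5, next 2069). High-fat high-sugar replicate 5 was thus the highest of its group for both Cfb and Cfi, the members at the centre of complement. It was also the highest of its group for C8a, Hc, F2, Serpind1, Plg, Klkb1 and Serpinc1 on the probe used for the count. High-fat high-sugar replicate 1 was the lowest of its group for C6, C8b, C8a, C8g, C9, Cfb and F11. That sample was also the lowest for F13b, Klkb1, Mbl1, Plg and Serpinc1 on the probe used for the count. Some sample is highest and some lowest for every member, and these lists were not tested.

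The dim probe of Serpinc1, antithrombin, responded differently to the drink on the 2 diets: the interaction was −0.56 ± 0.14 (limma adjusted p over all probes 0.0334), with group means of 28.8 in control, 46.0 with the drink, 19.6 on the high-fat diet and 13.4 with both. The gene's brightest probe, which lay between 198 and 343, did not pass in the interaction.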

How the results depend on the processing

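None of the 62 differences of a member in a comparison that were followed changed sign under the alternatives to the offset, filter, normalisation, weights, trend, probe average, block or set of samples. Single probes could differ: 1 probe of Masp2 was called opposite to its brightest one with the drink on the high-fat diet and with both treatments. Of 58 calls of a member in a comparison, 40 were kept under every alternative and 18 ended under at least 1, 12 of these when 1 sample was left out. Leaving out 1 sample gave 11 to 16 called members for the drink on the normal diet (12 as reported), 12 to 15 on the high-fat diet (15), 7 to 11 for fat on water (11, with 7 without high-fat replicate 2), 3 to 6 for fat on the drink (5, with 3 without high-fat high-sugar replicate 1), 15 to 18 for both treatments (15) and 0 to 1 for the interaction (0). Counting a member when any of its probes passed gave 20 for the drink on the normal diet and 23 on the high-fat diet. That count was 14 for fat on water, 9 for fat on the drink, 22 for both treatments and 2 for the interaction. Of all 20216 probes, 28%, 29.6%, 15.6%, 7.05%, 33.4% and 2.52% passed in that order. A member with several probes had several ways to be counted, so these shares of single probes are not a like measure. The interaction count was 1, Mbl2, with an offset of 64, the filter on all 24 arrays, cyclic loess, array weights or no intensity trend, at adjusted p from 0.0391 to 0.0496, and 0.0709 with no filter. With replicate numbers as a block the counts were 13, 14, 10, 4 and 16 in the 5 comparisons in the order of the report, and 1 for the interaction; the calls of C8g for fat on water, Klkb1 for fat on the drink and Mbl1 for the drink on the high-fat diet ended. The numbers do not pair the samples: deviations of same-numbered samples in different groups had a median correlation of 0.01 (−0.27 to 0.28 over 36 pairs). A floor of 16 ended the calls of Fgb, of C8b on the normal diet (adjusted p = 0.0676), of F11 for the drink on the high-fat diet (0.0788) and of Klkb1 for fat on the drink (0.0514), and enlarged all of those of Cfb. Averaging probes ended the calls of F5 for the drink on the normal diet, of Masp2 and of Plg, and gave 0.74 for F13b. The causes of these changes were not tested. Signal over background limits Fgb, C1ra, Cfb and C8a, and a probe's choice limits F5, F13b, Masp2 and Plg. It also limits members with a further probe called where the one used for the count was not, among them C9, Kng1, Masp1, Proc and Serpinc1.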
